A study of Homo sapiens with 33 samples.

Results

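The genes described here build and run the transcription and copying of mitochondrial DNA, or switch on the nuclear genes that mitochondria need. They are TFAM, TFB1M, TFB2M, POLRMT, POLG, POLG2, SSBP1, NRF1, PPRC1 and ESRRA. They were taken by name from 3 deposited tables of DESeq2 results, and all 10 had an entry in each table, of 15149 gene names in all. Their mean normalized counts lay between 433 and 2770 (A-375, total knockout), 699.6 and 7672 (UM-UC-3, total knockout) and 1108 and 8338 (A-375, long-form knockout), and all passed a minimum mean of 100.

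GABP is a transcription factor, and the study deleted parts of its subunit gene GABPB1 in A-375, a human melanoma line, and UM-UC-3, a human bladder cancer line, and 33 RNA libraries were sequenced, from 25 edited clones and the parental cells. In A-375 the total knockout joins 4 libraries of B1KO clones, lacking exons 2 to 9, with 8 libraries of B1X2KO clones, lacking exon 2 (12 libraries from 9 clones). In UM-UC-3 it joins 4 B1KO and 5 B1X2KO libraries (9 libraries from 8 clones). The long-form knockout, B1LKO, lacks exon 9 and exists in A-375 alone, as 2 libraries from 2 clones. Controls were 4 libraries of ROSA26_KO clones, edited at a safe-harbour site, and 2 parental, unedited libraries in A-375, and 3 ROSA26_KO libraries and 1 parental library in UM-UC-3. Edited libraries came from expanded single-cell clones after transfection of a Cas9 and guide plasmid and sorting, and parental cells are not such clones. The tables are titled knockout over parental and do not list their libraries, so in UM-UC-3 the control may be as few as 1 library. No value per library was used here, depth per sample is unknown, and the spread between cultures enters only through each standard error (SE). Nothing in the labels says that the libraries of 1 clone came from separate cultures, so the p-values may partly measure technical spread.

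Human mitochondrial DNA is transcribed by the polymerase POLRMT with TFAM, which bends and packages the DNA, and TFB2M, which opens the promoter. TFB1M is a relative of TFB2M that dimethylates the small-subunit ribosomal RNA and is needed to assemble mitochondrial ribosomes. The DNA is copied by POLG with its accessory subunit POLG2, on strands coated by the single-stranded binding protein SSBP1. All of these proteins are encoded in the nucleus. Several of their genes are classic targets of the nuclear respiratory factors, NRF1 and GABP itself (long called NRF-2). These factors act with coactivators of the PPARGC1A family, to which PPRC1 belongs, and with the orphan nuclear receptor ESRRA. The comparison therefore asks whether these genes follow the loss of a GABP subunit.

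The promoters show which members carry the letters that NRF1 and the ETS family, to which GABPA belongs, recognise. RefSeq promoter windows (GRCh38.p14, from 250 bases before to 50 after a transcript start) were found for 9 of the 10 members; NRF1 was not matched. The ETS core CCGGAAG, on either strand, was in the windows of 4 of the 9 (TFB1M, POLRMT, POLG2 and SSBP1) and in 10.3% of all 35116 windows. The NRF1 core GCATGCG, on either strand, was in 4 of the 9 (TFB1M, TFB2M, POLRMT and ESRRA) and in 3.91% of all windows. This core is nearly its own reverse complement, so matches on the opposite strands mostly overlap. The shorter ETS core CGGAAG, which lies within CCGGAAG, added TFB2M and was in 19.5% of windows. No match to any of these was in the windows of TFAM, POLG and PPRC1. The shares above count every window of the reference, while members were counted per gene, so they are not like measures. Per gene, among those with a window tested in the A-375 total knockout, 2250 held CCGGAAG and 8298 did not. For GCATGCG these numbers were 805 and 9743. The TFAM window ran from 58385160 to 58385459 on chromosome 10, while its annotated gene begins earlier, at 58385022. The sequence at and before that earlier start was not searched. Positions below count from the start, the base before it being -1, and capitals mark matches on either strand. TFB1M is shown for the fall of its transcript in both cell lines, TFB2M and SSBP1 for theirs in UM-UC-3, and POLRMT and POLG2 as members with the same ETS core that passed the test in no table.
TFB1M, chr6:155314494-155314734, minus strand, positions -250 to -10: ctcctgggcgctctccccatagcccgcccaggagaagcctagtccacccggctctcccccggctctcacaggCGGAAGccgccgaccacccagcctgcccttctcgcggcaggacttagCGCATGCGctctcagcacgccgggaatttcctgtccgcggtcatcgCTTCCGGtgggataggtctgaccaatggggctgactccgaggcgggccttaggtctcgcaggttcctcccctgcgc
TFB2M, chr1:246566300-246566329, minus strand, positions -68 to -39: gagccgaggCGGAAGCGGAAGtgagggaga
SSBP1, chr7:141738352-141738381, plus strand, positions -6 to 24 of the second of its 3 starts: ttccctgtgcgCCGGAAGtgatcccctgcg
POLRMT, chr19:633605-633687, minus strand, positions -150 to -68: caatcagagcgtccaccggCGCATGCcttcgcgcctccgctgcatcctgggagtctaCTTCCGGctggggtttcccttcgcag
POLG2, chr17:64497055-64497204, minus strand, positions -150 to -1: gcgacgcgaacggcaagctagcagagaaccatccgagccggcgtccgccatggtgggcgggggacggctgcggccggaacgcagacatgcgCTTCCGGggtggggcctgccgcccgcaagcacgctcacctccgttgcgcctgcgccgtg

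In TFB1M the ETS core began at -85 and the NRF1 core at -131, with another short ETS core at -178. In POLRMT the arrangement was alike, with the ETS core at -93 and an NRF1 core at -131, and a second NRF1 match at -23, outside the stretch shown. TFB2M held the short ETS core in tandem at -59 and -53, and an NRF1 match at -16 that lies outside the stretch shown. POLG2 had 1 ETS core, at -59, and no NRF1 core. These are letter matches in a reference sequence, and no binding was measured in the data used here.

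**Figure D1:**
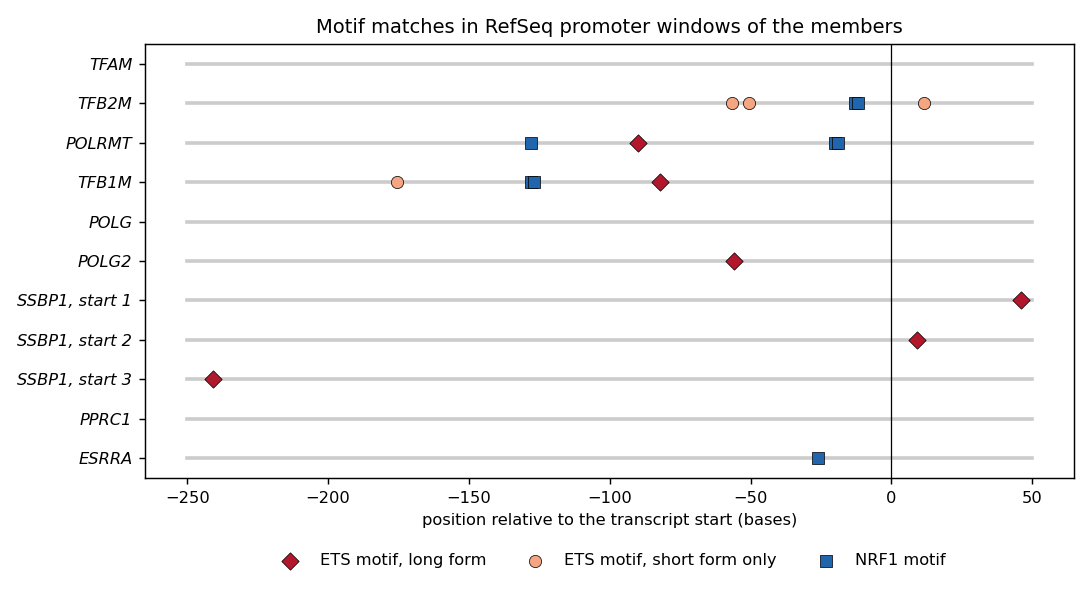
Motif matches on either strand in the RefSeq promoter windows of 9 members, by position relative to the transcript start in bases; each grey line is a window, diamonds are the long ETS core, circles the short ETS core alone and squares the NRF1 core. TFB1M and POLRMT hold both kinds of core, with the ETS core at -85 and -93, while TFAM, POLG and PPRC1 hold none.

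The entry for the long form of GABPB1 was far lower in all 3 knockouts, while the entries for its short form did not run alike in the A-375 tables. GABPB1L had a log2 fold change of -10.60 ± 0.70 in the A-375 total knockout (SE; DESeq2 adjusted p 1.61e-47) and -12.60 ± 0.71 in the UM-UC-3 total knockout (adjusted p 1.32e-66), from the authors' deposited tables. In the A-375 long-form knockout it fell by 12.79 ± 1.47 on the same scale (adjusted p 1.78e-14, per the authors' deposited table). The paralog GABPB2 rose by 1.81 ± 0.32 in A-375 and 2.49 ± 0.20 in UM-UC-3 total knockouts (DESeq2 adjusted p 6.05e-06 and 5.22e-32, per the authors' deposited tables). In the long-form knockout GABPB2 was at 0.29 ± 0.26 (adjusted p 0.70, per the authors' deposited table). The entry GABPB1S ran opposite ways in the A-375 authors' deposited tables, at 13.95 ± 1.04 in the long-form knockout and -9.81 ± 0.72 in the total knockout, and GABPB1S-DEX2 likewise (-12.00 ± 1.48 and 12.36 ± 1.88). The control level implied for GABPB1S (parental controls) was 0.129 normalized counts in the long-form table and 525 in the total table, and that for GABPB1S-DEX2 was 888 in the long-form table and 0.0571 in the total table, while the control levels of most genes kept a nearly constant ratio between these tables. The knockout levels implied on the same basis were 2040 for GABPB1S and 0.216 for GABPB1S-DEX2 in the long-form table. In the total table they were 0.586 and 300. Whether the names of these short-form entries are exchanged in either A-375 table was not tested, and no direction is drawn from them. Changes of this size in the GABPB1 entries have no fold meaning, since one group is near 0. The sources used here do not say how reads were assigned to these forms. Among 7 melanoma markers, 4 had an entry for the A-375 total knockout and 5 for UM-UC-3, so presence alone did not separate the lines. The mean normalized counts of those entered summed to 16996 for the A-375 total knockout and 651 for UM-UC-3. SOX10, one of these markers, had a mean normalized count of 14704 for the A-375 total knockout and 93.6 for UM-UC-3. In A-375, TYR and DCT had no entry in either of its tables, and MLANA none in the total table. Of 11 urothelial and epithelial markers, 5 had an entry in each table. In UM-UC-3 their mean normalized counts were 2449 for KRT8, 8029 for KRT18, 133 for KRT7, 194.5 for GATA3 and 990.2 for PPARG, and each of the 5 was also counted in A-375. The mean normalized counts of these 5 summed to 11796 for UM-UC-3, 7013 for the A-375 total and 19257 for the A-375 long-form knockout. Over all entries the sums were 4.24e+07, 1.95e+07 and 5.35e+07 in the same order, so these markers did not set UM-UC-3 apart. KRT5, KRT20, TP63 and the uroplakins UPK1B, UPK2 and UPK3A had no entry in any table.

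TFB1M was the member that fell in both cell lines. With the 2 parental libraries taken as the controls, its implied mean was 526 normalized counts in the A-375 total knockout and 981 in the controls. If the ROSA26_KO libraries were controls too, the implied levels were 458 in the knockout and 856 in the controls. Its transcript fell by 0.90 ± 0.20 on the log2 scale in the A-375 total knockout (DESeq2 adjusted p 0.000603, per the authors' deposited table), to 0.54 of the control level, with a 95% interval of 0.41 to 0.71. Of the genes with a mean count of at least 10 in that table, 6.67% had a lower fold change. In UM-UC-3 the implied level was 764 in the total knockout and 1019 in the control, with the parental library as the only control. There TFB1M fell by 0.41 ± 0.12 on the log2 scale (DESeq2 adjusted p 0.00310, per the authors' deposited table), to 0.75 of the control level (0.64 to 0.88). TFB1M lies on chromosome 6, 155257509 to 155314493 (hg38, minus strand). In RNA from whole cultures, fewer cells with a transcript and less of it per cell cannot be told apart.

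The calls have to be read against how much of each table moved. In the A-375 total knockout, 1 of the 10 members was lower and 0 were higher, while 10.8% of all genes tested there were called, 5.74% lower and 5.07% higher. In the UM-UC-3 total knockout, 3 of the 10 members were lower and 0 higher, against 31.1% called among all genes, 14.2% lower and 17.0% higher. In the A-375 long-form knockout 0 members passed, with 0.904% of all genes called, 0.664% lower and 0.240% higher. Between the cell lines, 2.07% of the genes tested in both total-knockout tables were lower in both, and of the members TFB1M was. The median fold change of the members was -0.15 on the log2 scale in A-375 (all genes -0.05), -0.14 in UM-UC-3 (all genes 0.03) and 0.13 in the long-form knockout (all genes 0.02).

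**Figure D2:**
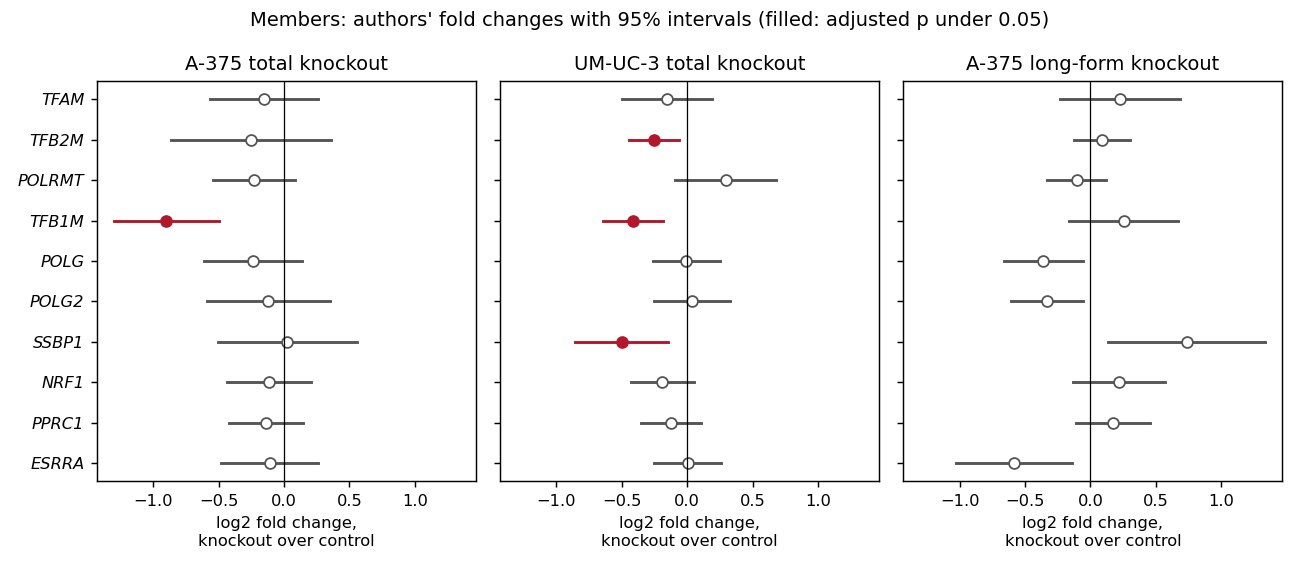
Log2 fold change of knockout over control (horizontal axis) for each member, from the authors' deposited tables, with 95% intervals from the SE; filled points have an adjusted p under 0.05. TFB1M lies left of 0 in both total knockouts, TFB2M and SSBP1 in UM-UC-3, and no member is filled in the long-form knockout.

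Of the genes for proteins that start mitochondrial transcription, the TFB2M transcript fell in UM-UC-3. Its implied level there was 1283 normalized counts in the total knockout and 1530 in the control (parental library as control). The change was -0.25 ± 0.10 on the log2 scale (DESeq2 adjusted p 0.0353, per the authors' deposited table), or 0.84 of the control level (0.73 to 0.96). In A-375 the estimate was almost the same, -0.25 ± 0.31, but its SE was larger and it did not pass (adjusted p 0.65, per the authors' deposited table). The implied A-375 level of TFB2M was 1378 in the total knockout and 1641 in the controls, with the 2 parental libraries as controls. In the long-form knockout TFB2M was at 0.09 ± 0.11 (adjusted p 0.78, per the authors' deposited table).

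TFAM, the packaging protein of mitochondrial DNA, did not pass in any table. Its implied level was 1376 normalized counts in the A-375 total knockout and 1529 in the controls, and 4111 in the UM-UC-3 total knockout and 4578 in the control, counting parental libraries alone as controls. The fold changes in the authors' deposited tables were -0.15 ± 0.21 in A-375 (DESeq2 adjusted p 0.69) and -0.16 ± 0.18 in UM-UC-3 (adjusted p 0.54). The 95% intervals of the ratio of knockout to control were 0.68 to 1.20 in A-375 and 0.71 to 1.14 in UM-UC-3. A TFAM decline of the size seen for TFB1M in A-375 (0.54) lies outside both. A decline of the size seen for TFB1M in UM-UC-3 (0.75) lies inside both. TFAM lies on chromosome 10, 58385022 to 58399221, TFB2M on chromosome 1, 246540560 to 246566324, and SSBP1 on chromosome 7, 141738321 to 141787922 (hg38). TFAM in the long-form knockout was at 0.23 ± 0.23 (adjusted p 0.74, per the authors' deposited table).

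POLRMT, the RNA polymerase, had estimates of opposite sign in the cell lines. Its implied level was 1816 normalized counts in the A-375 total knockout and 2131 in the controls, and 7590 in the UM-UC-3 total knockout and 6186 in the control (parental controls). In the authors' deposited tables these were changes of -0.23 ± 0.16 in A-375 (DESeq2 adjusted p 0.36) and 0.29 ± 0.20 in UM-UC-3 (adjusted p 0.26), and neither passed. The difference between the lines, A-375 minus UM-UC-3, was -0.53 ± 0.25 on the log2 scale (normal test of the difference, p 0.0382, adjusted p 0.167 over all genes), so it did not pass either. The long-form knockout gave -0.11 ± 0.11 (adjusted p 0.75, per the authors' deposited table).

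**Figure D3:**
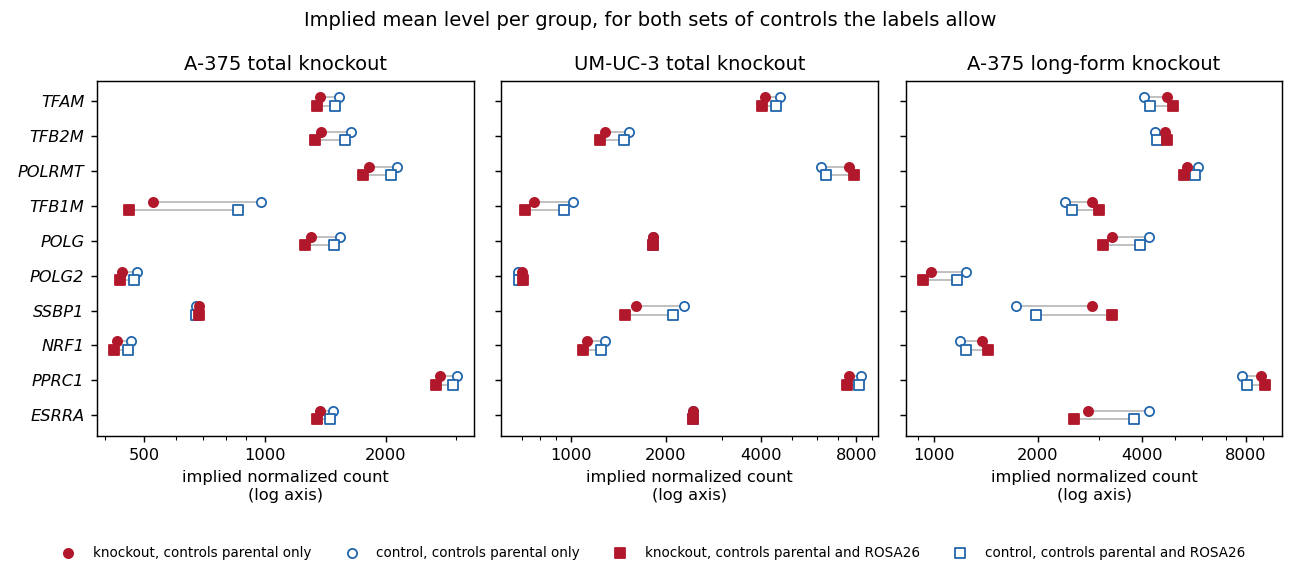
Mean normalized count implied for the knockout (filled red) and the control (open blue) of each table, on a log axis, with parental libraries alone (circles) or parental and ROSA26_KO libraries (squares) taken as controls. For TFB1M in the A-375 total knockout the pair is 526 and 981 (circles), the widest gap in that panel, and the choice of controls moves both levels without changing their ratio.

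Among the genes for replication proteins, the SSBP1 transcript fell in UM-UC-3. It stood at an implied 1612 normalized counts in the total knockout and 2284 in the control (parental library as control). This was a change of -0.50 ± 0.18 on the log2 scale (DESeq2 adjusted p 0.0241, per the authors' deposited table), or 0.71 of the control level (0.55 to 0.91). In the A-375 total knockout SSBP1 was at 685 against 673 in the controls, and its change of 0.03 ± 0.27 did not pass (adjusted p 0.965, per the authors' deposited table). The difference between the lines for SSBP1, A-375 minus UM-UC-3, was 0.53 ± 0.33 with a 95% interval of -0.11 to 1.17 (normal test, adjusted p 0.31), so the lines were not shown to differ. In the long-form knockout SSBP1 had the highest estimate of any member, 0.74 ± 0.31, implied levels of 2876 in the knockout and 1724 in the controls, and an unadjusted p of 0.0158, but did not pass after adjustment (adjusted p 0.32, per the authors' deposited table).

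POLG and POLG2, the catalytic and accessory subunits of the DNA polymerase, did not pass in any table. In UM-UC-3 both estimates were close to 0 in the authors' deposited table, at -0.0062 ± 0.13 for POLG (DESeq2 adjusted p 0.98) and 0.04 ± 0.15 for POLG2 (adjusted p 0.88). POLG in A-375 was at -0.24 ± 0.19 in the total knockout (adjusted p 0.44) and -0.36 ± 0.15 in the long-form knockout (adjusted p 0.34), per the authors' deposited tables. POLG2 was at -0.12 ± 0.24 (adjusted p 0.795) in the total and -0.33 ± 0.14 (adjusted p 0.32) in the long-form knockout in the authors' deposited tables. The implied levels of POLG2 were 442 normalized counts in the A-375 total knockout and 480.0 in the controls, and 701 in the UM-UC-3 total knockout and 684 in the control (parental controls). POLG shares 458 exonic bases with FANCI, a repair gene on the opposite strand, which fell by 1.07 ± 0.28 in A-375 and 1.13 ± 0.22 in UM-UC-3 on the log2 scale (DESeq2 adjusted p 0.00319 and 6.35e-06, per the authors' deposited tables). The sources used here do not say whether reads were counted by strand, so POLG values may include FANCI reads. On the same ground TFB1M (215 bases shared with TIAM2) and ESRRA (284 with TRMT112) are uncertain. TIAM2 had fold changes of 0.44 ± 0.49 in A-375 and 0.92 ± 0.38 in UM-UC-3 total knockouts, both upward and neither past the threshold (adjusted p 0.61 and 0.054, per the authors' deposited tables). TFAM, POLRMT and ESRRA also have processed pseudogenes, at which reads could be split.

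The 3 regulators of mitochondrial gene expression, NRF1, PPRC1 and ESRRA, did not pass in either total knockout. NRF1, which binds promoters of respiratory genes, was at an implied 428 normalized counts in the A-375 total knockout and 464 in the controls, and 1127 in the UM-UC-3 total knockout and 1286 in the control (parental controls). Its changes in the authors' deposited tables were -0.12 ± 0.16 (DESeq2 adjusted p 0.70) in A-375 and -0.19 ± 0.12 (adjusted p 0.23) in UM-UC-3. PPRC1, a serum-inducible coactivator, was at -0.14 ± 0.15 (adjusted p 0.58) in A-375 and -0.12 ± 0.12 (adjusted p 0.44) in UM-UC-3 in the authors' deposited tables. ESRRA was at -0.11 ± 0.19 (adjusted p 0.76) in A-375 and 0.0040 ± 0.13 (adjusted p 0.99) in UM-UC-3 in the authors' deposited tables. The implied levels of PPRC1 were 2729.7 normalized counts in the A-375 total knockout and 3009 in the controls, and 7603 in the UM-UC-3 total knockout and 8284 in the control (parental controls). Those of ESRRA were 1370.0 in the A-375 total knockout and 1479 in the controls, and 2444 in the UM-UC-3 total knockout and 2437 in the control. In the long-form knockout NRF1 was at 0.22 ± 0.18 (adjusted p 0.66) and PPRC1 at 0.18 ± 0.14 (adjusted p 0.66), per the authors' deposited table. TRMT112, which overlaps ESRRA and activates several methyltransferases, fell by 0.52 ± 0.15 in UM-UC-3 (adjusted p 0.00396, per the authors' deposited table). Across the members, the 95% interval stayed within 2-fold either way for 9 of 10 in the A-375 total knockout, TFB1M being the exception, and for 10 of 10 in UM-UC-3. It did so for 8 of 10 in the long-form knockout, since the log2 interval of SSBP1 reached 1.34 and that of ESRRA -1.03.

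Per length, the members kept a partly shared order of level. On mean normalized count per kilobase of the longest coding transcript, NRF1 was the lowest member in each of the 3 tables, at 121 in the A-375 total, 320 in the UM-UC-3 total and 360.0 in the A-375 long-form table. TFB2M was first in the A-375 tables (766 in the total, 2443 in the long-form) and at rank 6 of the members in UM-UC-3 (708). POLRMT was first in UM-UC-3 (1942) and at rank 5 in the A-375 total table (485). SSBP1 was second in each table (691, 1698 and 2326 in the A-375 total, UM-UC-3 total and A-375 long-form tables). TFAM, at 258 in the A-375 total table and 768 in UM-UC-3, has a long transcript form in the annotation, which lowers its value on this scale. These means pool knockout and control libraries and have no spread of their own, so neighbours in the order cannot be separated, and levels are not comparable between tables.

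The long-form knockout asks whether losing the long form of GABPB1 alone gives the change seen when both forms are disrupted. By the authors' DESeq2 test, 0 of the 10 members passed, 4 had an unadjusted p under 0.05, and 1545 of all 14156 genes did. Those 4 were ESRRA (-0.58 ± 0.23, unadjusted p 0.00999), SSBP1, POLG2 and POLG in the authors' deposited table, of which SSBP1 alone was positive. The A-375 tables may share control libraries. Implied control levels in the long-form table were a nearly constant multiple of those in the total table, with a median of 2.71 and quartiles of 2.60 and 2.82 over 11395 genes (parental controls), and members between 2.45 (TFB1M) and 2.83 (ESRRA). The same ratio of knockout levels was 5.46 for TFB1M and 2.89 at the median of all genes. With ROSA26_KO libraries counted as controls too, the control ratio had a median of 2.76 and quartiles of 2.68 and 2.83, and TFB1M had the highest ratio of the members (2.94) in place of the lowest. The knockout ratio of TFB1M was then 6.55, and 2.94 at the median of all genes.

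TFB1M stood apart in this comparison. It was at an implied 2869 normalized counts in the long-form knockout and 2404 in its controls, a change of 0.25 ± 0.21 (DESeq2 adjusted p 0.67, per the authors' deposited table), against -0.90 ± 0.20 in the total knockout. The difference, long-form minus total knockout, was 1.15 ± 0.29 on the log2 scale with a 95% interval of 0.58 to 1.73 (normal test, adjusted p 0.00749 over all genes, where 4.45% were called, 1.79% lower and 2.66% higher). If controls are shared, the true SE of this difference is smaller. No other member differed between the A-375 knockouts after adjustment, the next smallest p being that of SSBP1 (0.71 ± 0.41, unadjusted p 0.0815). Between the cell lines, 0 of 10 members differed by the normal test after adjustment, where 10.4% of all genes did (6.32% lower, 4.12% higher), and 2 had an unadjusted p under 0.05, POLRMT and TFB1M. The TFB1M difference, A-375 minus UM-UC-3, was -0.49 ± 0.24 (95% interval -0.95 to -0.02, adjusted p 0.17).

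**Figure D4:**
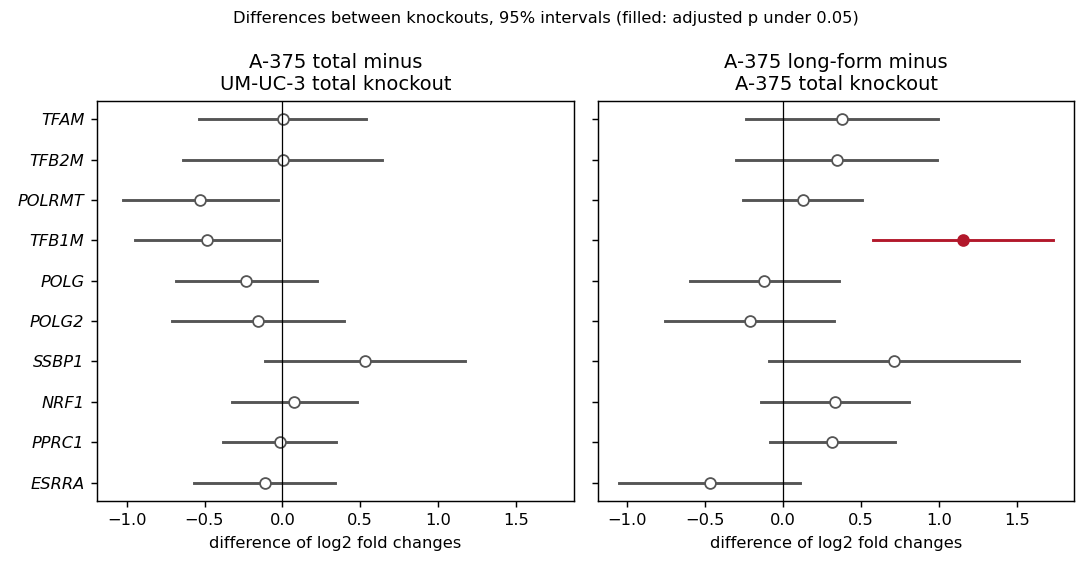
Difference of log2 fold changes between knockouts for each member, with 95% intervals; the left panel is A-375 total minus UM-UC-3 total, the right A-375 long-form minus A-375 total, and a filled point has an adjusted p under 0.05. TFB1M at 1.15 in the right panel is the one filled point.

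Several other genes that maintain mitochondrial DNA were lower in the UM-UC-3 total knockout. Of 15 measured, 7 were lower and 1 higher, with a median of -0.27 on the log2 scale (all genes 0.03), where 14.2% of all genes were lower and 17.0% higher. The topoisomerase TOP3A, which separates linked daughter molecules, fell by 0.61 ± 0.08 (DESeq2 adjusted p 5.56e-13), and the inner-membrane protein MPV17, mutated in mitochondrial DNA depletion, by 0.67 ± 0.11 (adjusted p 1.86e-08) on the log2 scale in the authors' deposited table. TWNK, the replicative helicase (entered under its older name C10orf2), fell by 0.57 ± 0.12 in UM-UC-3 (adjusted p 5.63e-05, per the authors' deposited table). In A-375 it was at -0.72 ± 0.29 and did not pass (adjusted p 0.090, per the authors' deposited table). PRIMPOL, a primase and polymerase that restarts stalled forks, fell in both, by 0.96 ± 0.20 in A-375 and 0.78 ± 0.15 in UM-UC-3 on the log2 scale (DESeq2 adjusted p 0.000104 and 3.38e-06, per the authors' deposited tables). The higher gene was MPV17L2, a relative of MPV17 linked to mitochondrial ribosome assembly, at 0.36 ± 0.13 (adjusted p 0.0220, per the authors' deposited table). In the A-375 total knockout 1 of 15 was lower and 0 higher, with a median of -0.17 (all genes -0.05), where 5.74% of all genes were lower and 5.07% higher. Of 10 suppliers of nucleotides, RRM2B, a ribonucleotide reductase subunit induced by p53, rose in A-375 (0.89 ± 0.29, adjusted p 0.0289, per the authors' deposited table) and 0 fell. In UM-UC-3, 1 of 9 rose, the pyrimidine nucleotide carrier SLC25A36 (0.57 ± 0.15, adjusted p 0.00142), and 1 fell, the nucleoside diphosphate kinase NME4 (-0.60 ± 0.14, adjusted p 0.000263), in the authors' deposited table.

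Enzymes that modify mitochondrial RNA included the closest parallels to TFB1M by role. Of 19 measured, 3 were lower and 0 higher in A-375 (median -0.26), and 5 were lower and 1 higher in UM-UC-3 (median -0.04). Among all genes the shares were 5.74% lower and 5.07% higher in A-375, and 14.2% lower and 17.0% higher in UM-UC-3. MRM2, which methylates the large-subunit ribosomal RNA (entered as FTSJ2), fell by 0.87 ± 0.17 in A-375 and 0.99 ± 0.17 in UM-UC-3 on the log2 scale (DESeq2 adjusted p 2.54e-05 and 1.62e-07, per the authors' deposited tables). METTL17, an assembly factor of the small ribosomal subunit, fell by 0.54 ± 0.19 in A-375 and 0.28 ± 0.10 in UM-UC-3 on the log2 scale (DESeq2 adjusted p 0.0400 and 0.0205, per the authors' deposited tables). NSUN4, a methyltransferase of the small-subunit ribosomal RNA, fell by 0.39 ± 0.12 in A-375 (adjusted p 0.0210, per the authors' deposited table). It was at -0.03 ± 0.11 in UM-UC-3 (adjusted p 0.87, per the authors' deposited table). The A-375 calls of METTL17 and NSUN4 were lost when that table was centred on its median. The tRNA modifiers TRMU (-0.67 ± 0.13, adjusted p 8.52e-06) and CDK5RAP1 (-0.67 ± 0.15, adjusted p 0.000138) fell in UM-UC-3 in the authors' deposited table, as did TRUB2 (-0.44 ± 0.16, adjusted p 0.0197). TRMT5, a tRNA methyltransferase, rose there (0.35 ± 0.11, adjusted p 0.00607, per the authors' deposited table). The promoter window of MRM2 held the ETS core at -40, -18 and 2, and that of PRIMPOL held neither core.

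PRIMPOL and MRM2 also differed between the A-375 knockouts as TFB1M did. The long-form minus total difference was 1.03 ± 0.28 for PRIMPOL (normal test, adjusted p 0.0157) and 1.12 ± 0.23 for MRM2 (adjusted p 0.000392). These were the only calls of that difference among the 86 genes of the 5 pathway lists tested there. Among all genes 4.45% were called, 1.79% lower and 2.66% higher. Both genes were named above for their falls in the A-375 total knockout, which enter this difference.

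Genes that elongate, process and stabilise mitochondrial transcripts moved both ways in UM-UC-3. Of 25 measured, 8 were lower and 3 higher there (all genes 14.2% and 17.0%), with a median of -0.10. In A-375 0 of 25 were called, where 5.74% of all genes were lower and 5.07% higher. There 1 of 25 had an unadjusted p under 0.05 in the authors' DESeq2 test, and 3630 of all 14330 genes did. In UM-UC-3 TEFM, the elongation factor of POLRMT, fell by 0.72 ± 0.16 on the log2 scale (DESeq2 adjusted p 9.38e-05, per the authors' deposited table). FASTKD5, needed to mature mitochondrial messages, fell by 0.65 ± 0.17 on the log2 scale (DESeq2 adjusted p 0.00121, per the authors' deposited table), and the line difference for it, A-375 minus UM-UC-3, was 0.88 ± 0.22 (normal test, adjusted p 0.00349). The fold changes of TRMT10C, a subunit of mitochondrial RNase P, and LRPPRC also differed between the lines. The differences, A-375 minus UM-UC-3, were 0.65 (adjusted p 0.0316) and -0.57 (adjusted p 0.0331) by the same normal test. In all, 3 of 25 differed, 1 lower and 2 higher, where 10.4% of all genes did (6.32% lower, 4.12% higher). LRPPRC and SLIRP form a complex that protects mitochondrial messages, and their transcripts moved opposite ways in UM-UC-3. LRPPRC rose by 0.43 ± 0.07 (adjusted p 3.31e-08) and SLIRP fell by 0.93 ± 0.25 on the log2 scale (DESeq2 adjusted p 0.00125), both per the authors' deposited table. The helicase SUPV3L1 (0.33 ± 0.09, adjusted p 0.00233) and the poly(A) polymerase MTPAP (0.37 ± 0.11, adjusted p 0.00423) rose as well in the authors' deposited table.

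Among coactivators and signalling partners of biogenesis, 5 of 16 were higher and 1 lower in the UM-UC-3 total knockout, with a median of 0.14 (all genes 17.0% higher and 14.2% lower). The higher genes included PRKAA2 (0.92 ± 0.17, adjusted p 2.95e-06) and PRKAA1 (0.72 ± 0.21, adjusted p 0.00327), the catalytic subunits of AMP-activated kinase, and the deacetylase SIRT1 (0.86 ± 0.21, adjusted p 0.000358), per the authors' deposited table. The transcription factors CREB1 (0.81 ± 0.17, adjusted p 6.33e-05) and MEF2A (0.53 ± 0.13, adjusted p 0.000615) were higher too, per the authors' deposited table. HCFC1, a chromatin cofactor, fell by 0.45 ± 0.12 on the log2 scale (DESeq2 adjusted p 0.00203, per the authors' deposited table). In A-375 the list had 0 of 17 higher and 1 lower, where 5.07% of all genes were higher and 5.74% lower. The lower gene was the fatty-acid receptor PPARA (-0.97 ± 0.28, DESeq2 adjusted p 0.0115, per the authors' deposited table). The log2 fold changes of CREB1, SIRT1, PRKAA1, MEF2A and PPARA differed between the lines, each being lower in A-375 than in UM-UC-3. The differences, A-375 minus UM-UC-3, ran from -0.82 (MEF2A) to -1.20 (SIRT1) (normal test, adjusted p 9.99e-05 for CREB1 to 0.0218 for PPARA). These were 5 of 16, where 10.4% of all genes differed (6.32% lower, 4.12% higher). PPARGC1A itself had a mean normalized count of 20.2 for the A-375 total knockout and no entry for UM-UC-3, and PPARGC1B did not pass in any table.

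Over the 5 lists together, the A-375 total knockout had 5 of 86 genes lower and 1 higher, where 5.74% of all genes were lower and 5.07% higher, so the share called lower was close to that of all genes. Centring that table gave 3 lower and 2 higher. The UM-UC-3 total knockout had 22 of 84 lower and 11 higher, where 14.2% of all genes were lower and 17.0% higher. The long-form knockout had 0 of 87 called by the authors' DESeq2 test, where 0.904% of all genes were called. Of the 87, 7 had an unadjusted p under 0.05, and 1545 of all 14156 genes did. None of the 15 searched names of genes encoded on mitochondrial DNA has an entry in the tables, so the products of this machinery were not analysed here.

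**Figure D5:**
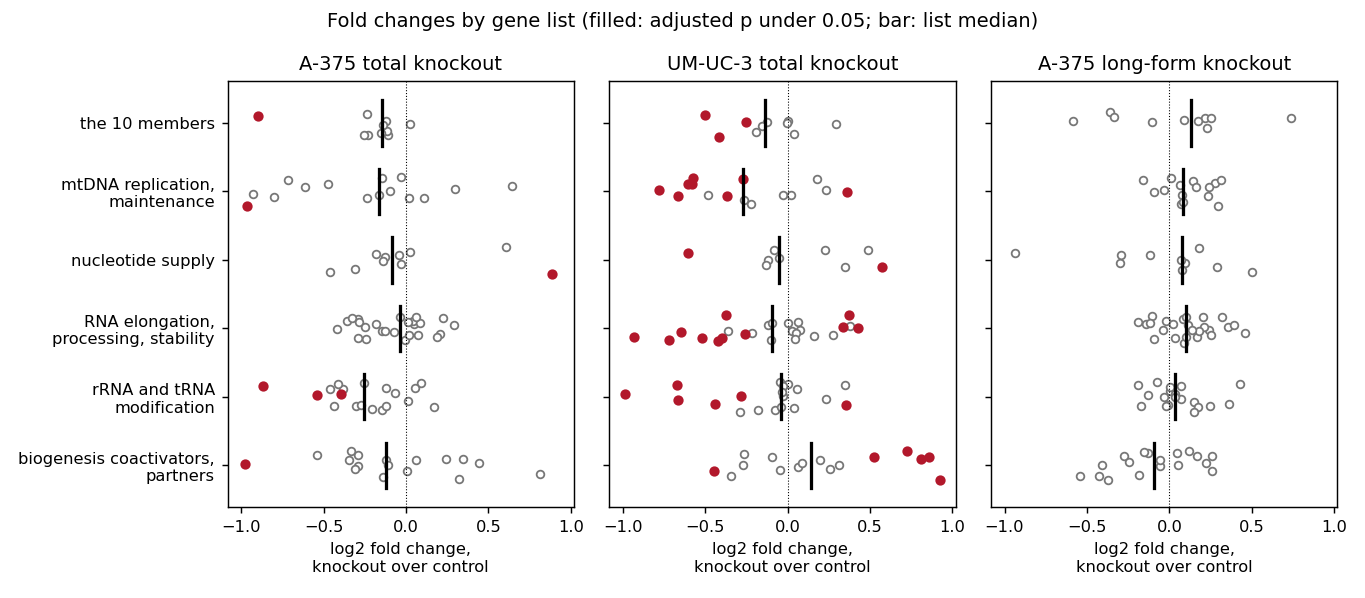
Log2 fold change of knockout over control for each gene of the members and of the 5 pathway lists; filled red points have an adjusted p under 0.05 and bars are list medians. In UM-UC-3 the list of mitochondrial DNA maintenance lies lowest, with a median of -0.27, and the list of coactivators highest, at 0.14, and in the long-form knockout no point is filled.

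Among tested genes with a matched promoter window, the share called lower was also counted by whether a window held the ETS core. Tested genes without a window are left out, so these shares are not on the same base as those over all genes. In the A-375 total knockout, 9.69% of 2250 tested genes with CCGGAAG were lower and 4.76% of 8298 without it. In UM-UC-3 it was 23.0% of 2181 with and 12.2% of 7657 without. In the long-form knockout the shares were 0.446% of 2242 with and 0.549% of 8202 without. For higher calls the shares with and without CCGGAAG were 3.20% and 5.58% in A-375, 12.3% and 18.7% in UM-UC-3, and 0.312% and 0.207% in the long-form knockout. The NRF1 core ran the other way for lower calls in the total knockouts. In A-375, 2.73% of 805 genes with GCATGCG were lower and 6.07% of 9743 without it, and in UM-UC-3 13.0% of 770 with and 14.7% of 9068 without. For the long-form knockout it was 0.623% of 803 with and 0.519% of 9641 without. These are counts without a test, since genes are not replicates, and TFB1M carries both cores. Of the 4 members with the core, TFB1M was lower in both lines, SSBP1 in UM-UC-3, and POLRMT and POLG2 in neither.

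The 5 genes whose fold changes across the 3 tables lay nearest to those of TFB1M, by Euclidean distance on the log2 scale over 10503 genes with a mean count of at least 100 in each table, were KIF20B (distance 0.044), C17orf53 (0.048), AURKA (0.058), TACC3 (0.061) and PRKDC (0.069). The likeness rests on 3 values a gene, and the A-375 pair may share controls. The genes were picked for these same fold changes, so their calls add no support. Among these 5, PRKDC, a kinase of DNA end joining, was called in both total knockouts, at -0.94 ± 0.25 in A-375 and -0.47 ± 0.15 in UM-UC-3 (DESeq2 adjusted p 0.00571 and 0.00735, per the authors' deposited tables). By the same test KIF20B was called in A-375 alone (adjusted p 0.0254). C17orf53 and AURKA were called in UM-UC-3 alone (adjusted p 0.0366 and 0.0455), and TACC3 in neither.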

How the data were processed

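The 33 RNA libraries were made with a stranded mRNA kit, per the labels' protocols. Per the submitters' processing notes, the tools were HISAT2, SAMtools, StringTie and DESeq2 on hg38. Their versions, annotation and strand setting, and which libraries entered each fit, were not given in the sources used here. Deposited by the authors were DESeq2 tables holding, per the file headers, a signal column (the mean over all samples, which in DESeq2 is of counts divided by size factors), log2 columns (fold change and SE), a score column (the Wald statistic) and p-value columns (p, Benjamini-Hochberg adjusted p and q-value).

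A gene was called at the authors' adjusted p under 0.05, over all 14330, 13310 and 14156 genes tested. Differences between tables were tested as the difference of log2 fold changes over the root of the summed squared SEs, with a two-sided normal p, adjusted by Benjamini and Hochberg's method across genes whose mean reached 10 in each, a step tested on simulated data (Python 3.11.15, SciPy 1.17.1). The simulated tables had independent errors, so the case of shared control libraries was not covered. Implied levels solve the mean, the fold change and the library numbers for each group. Genes were placed with GENCODE release 29 on hg38, and promoters are from RefSeq GRCh38.p14. Older names were matched through RefSeq synonyms.

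The members and lists were chosen with earlier results of these data known. Named genes were the members, the GABP subunits, up to 4 called genes per list and table by smallest adjusted p, and the 5 nearest to TFB1M; MPV17L2, TRUB2, SUPV3L1, MTPAP, HCFC1, PRKAA1 and TRMT10C were named after their values were seen, as were the overlapping genes. Alternatives were centring, filters on the mean, the q-value, a threshold of 0.01, other controls and shorter motifs.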

Additional observations from a re-analysis of the deposited data

Results flagged for a closer look

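TFB1M was singled out because its fold change differed between the A-375 knockouts by a test of the difference itself. It was 0.25 ± 0.21 in the long-form knockout and -0.90 ± 0.20 in the total knockout, a difference of 1.15 ± 0.29 on the log2 scale (normal test, adjusted p 0.00749). With each table centred on its median the difference was 1.09 (adjusted p 0.0144). The long-form value rests on 2 libraries, and the part of library choice in this difference was not tested.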

How the results depend on the processing

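The members' calls held in each table with the fold changes centred on the median, with means of at least 10 or 100 and with the q-value, and TFB1M passed a threshold of 0.01 in both total knockouts. At that threshold 1 member was called in UM-UC-3 in place of 3, since TFB2M and SSBP1 did not reach it. For the pathway lists in the A-375 total knockout, 6 genes were called as deposited, 10 with the q-value and 2 at 0.01. Centring turned the sign of ESRRA in UM-UC-3 to -0.026 and of the line difference of PPRC1 to 0.066, neither of which was called. The centring shifts were -0.05, 0.03 and 0.02. Counting ROSA26_KO libraries as controls gave implied TFB1M levels in A-375 of 458 in the total knockout and 856 in the controls, in place of 526 and 981, with the ratio fixed by the deposited fold change.

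No replicate could be left out, because the tables hold no value per library. No paired analysis was possible because the tables hold no columns of single libraries. Depth per library is unknown, so its limit cannot be given. The SE limits the calls: the TFB2M estimate of -0.25 passed in UM-UC-3 with an SE of 0.10 and did not in A-375 with an SE of 0.31.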
